A study of Homo sapiens with 8 samples.

Results

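The genes described here encode the nuclear subunits of mitochondrial respiratory complexes II to V. Members were taken from the gene table by symbol: SDHA, SDHB, SDHC, SDHD, CYC1 and every row starting with UQCR, COX4, COX5, COX6, COX7, COX8 or ATP5. Of 48 matching rows, 2 pseudogene rows (ATP5EP2 and UQCRBP1) were left out, so 46 of the 18892 gene rows were members. By complex these were 4 rows for complex II, 10 for complex III, 14 for complex IV and 15 for complex V. The other 3 rows, ATP5SL, ATP5S and COX7A2L, match by symbol but encode proteins that are not subunits of these complexes. Of the 46 members, 40 passed the filter on low values and 6 were too low to test.

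PolyA RNA was sequenced from C4-2, an established line of human prostate cancer cells that descends from LNCaP, grown in RPMI medium with serum. Cells carried either a control hairpin (shCTRL, 2 libraries) or a hairpin against CDCA8 (shCDCA8, 2 libraries). CDCA8, or borealin, is a subunit of the chromosomal passenger complex of dividing cells. The labels name no rescue and no second CDCA8 hairpin, and do not say whether the libraries of a group came from separate cultures, so p-values measure only the spread between these libraries, which may be technical.

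Complex II (succinate dehydrogenase) passes electrons from succinate to ubiquinone and is also an enzyme of the citric acid cycle. Complex III passes electrons from ubiquinol to cytochrome c, and complex IV passes them on to oxygen. Both pump protons across the inner membrane, and complex V, the ATP synthase, lets the protons flow back to make ATP. Complex II is encoded wholly in the nucleus, whereas complexes III, IV and V each combine nuclear subunits with subunits made inside the mitochondrion from mitochondrial DNA. No gene row matched any of 10 mitochondrially encoded genes looked up, so the mitochondrially encoded subunits were not analysed here. Prostate epithelium is known for an unusual metabolism in which citrate is secreted rather than oxidised.

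The deposited unit is RPM, reads scaled to a common library total, and reads recovered from it ran from 17406425 to 21920570 per library in the gene rows. These rows held 41.1% and 43.6% of the RPM total in the shCTRL libraries but 33.3% and 34.2% in the shCDCA8 libraries. As a result the median log2 fold change over the 11833 kept genes was -0.27 in RPM and 0.01 after median-ratio scaling, in which the typical gene's ratio to its geometric mean over the 4 libraries sets a factor for each library. Calls of the complexes and lists are therefore counted on both scales, and single genes are given in RPM with the median-ratio value where it changes a call. CDCA8 itself was at 14.2 and 16.5 RPM in shCTRL and at 3.98 and 3.94 RPM in shCDCA8 libraries, a log2 fold change of -1.72 (limma, adjusted p = 7.86e-07). The prostate luminal markers KLK3 and KLK2 were present in every library, and their log2 fold changes were -1.87 and -1.58. KRT8 and KRT18, of the same list, rose, with log2 fold changes of 0.74 and 0.49. Of 8 luminal markers 5 fell and 2 rose in RPM, beside 47.6% and 18.8% of all kept genes. After median-ratio scaling 4 fell and 3 rose, beside 33.6% and 33.2% of all kept genes. Of 9 markers of blood, endothelial, stromal and basal cells, 6 had rows matched here, none of them a basal marker. The 6 summed to 15.1 and 18.5 RPM in shCTRL against 5.00 and 5.90 RPM in shCDCA8. Of these, 2 were kept and both fell, with log2 fold changes of -1.40 for VWF and -1.30 for COL1A1, whereas CD3E was at 0 in both shCDCA8 libraries. Their part in the results below was not tested.

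Most respiratory complex genes were higher in the shCDCA8 libraries. In RPM, 18.8% of all kept genes rose and 47.6% fell. Of the 40 kept members 25 rose and 4 fell, including 1 rise and 1 fall among the 3 rows that are not subunits. The counts changed when a library was left out: without shCTRL replicate 1 there were 16 rises and 3 falls, without shCTRL replicate 2 there were 23 and 2, without shCDCA8 replicate 1 there were 16 and 2, and without shCDCA8 replicate 2 there were 21 and 2. Here rose and fell mean an adjusted p under 0.05 in limma on log2(RPM + 1). The median log2 fold change of the members was 0.30, within a range of -0.60 (CYC1) to 0.80 (UQCRC2). After median-ratio scaling 33 members rose and 1 fell, beside 33.2% and 33.6% of all kept genes, with a median of 0.61. Both shCDCA8 libraries lay above both shCTRL libraries for 26 members, and both lay below for 5, beside 26.5% and 56.8% of all kept genes. The 46 rows summed to 3806 and 4044 RPM in shCTRL and to 4658 and 4547 RPM in shCDCA8 libraries, a ratio of means of 1.17, whereas all kept genes together had a ratio of 0.798. In RNA from whole cultures, a change in the share of cells in a given state and a change in RNA per cell cannot be told apart.

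**Figure D1:**
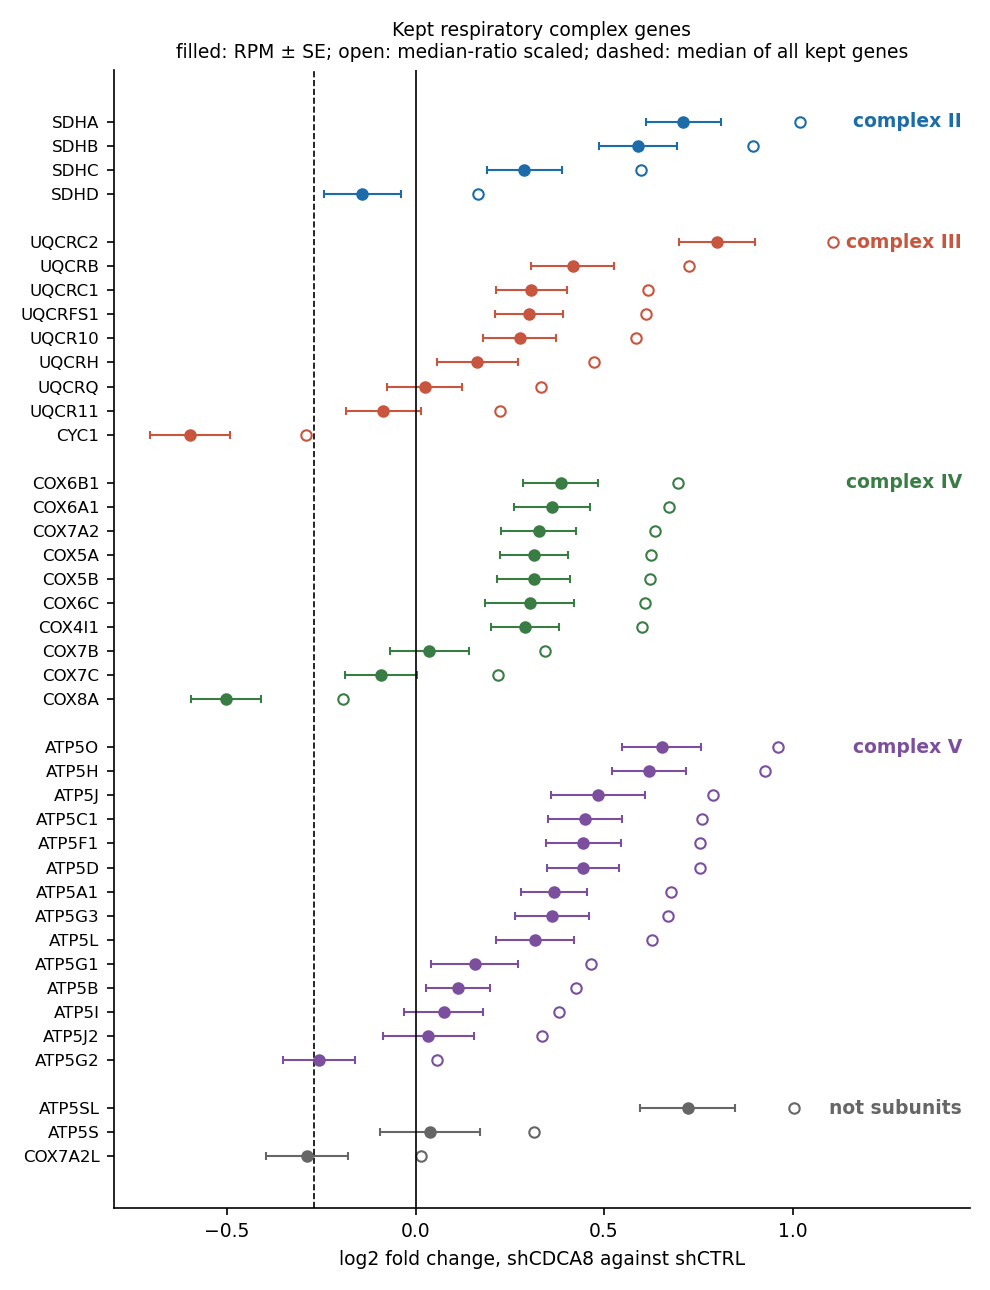
Log2 fold change of shCDCA8 against shCTRL (x axis) for the 40 kept members grouped by complex. Filled points are log2(RPM + 1) differences with standard errors, open points are median-ratio scaled values, and the dashed line is the median of all kept genes at -0.27. Points run from -0.60 for CYC1 to 0.80 for UQCRC2 in RPM, and every open point lies to the right of its filled point.

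Every complex had more members that rose than fell. In RPM, 3 of 4 kept genes of complex II rose and 0 fell, and in complex III 5 of 9 rose and 1 fell. In complex IV 7 of 10 rose and 1 fell, and in complex V 9 of 14 rose and 1 fell. Beside these, 18.8% of all kept genes rose and 47.6% fell. The counts of rises changed when a library was left out, most in complexes III and IV. Median log2 fold changes were 0.44 for complex II, 0.28 for complex III, 0.31 for complex IV and 0.36 for complex V. After median-ratio scaling the medians were 0.75, 0.58, 0.61 and 0.67 in that order. On that scale 3 genes rose and 0 fell in complex II, and 7 rose and 1 fell in complex III. In complex IV 8 rose and 0 fell, and in complex V 13 rose and 0 fell, beside 33.2% and 33.6% of all kept genes. Summed over its rows, complex II went from 234 and 245 RPM to 323 and 313 RPM, a ratio of 1.33. Complex III went from 809 and 862 to 974 and 946 RPM (ratio 1.15). Complex IV went from 983 and 1020 to 1170 and 1095 RPM (ratio 1.13), and complex V from 1729 and 1867 to 2141 and 2143 RPM (ratio 1.19). For none of the 4 complexes did the shCTRL and shCDCA8 sums overlap. Within a complex, genes ranged more widely than the complexes' medians differed, and a difference between complexes was not tested.

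**Figure D2:**
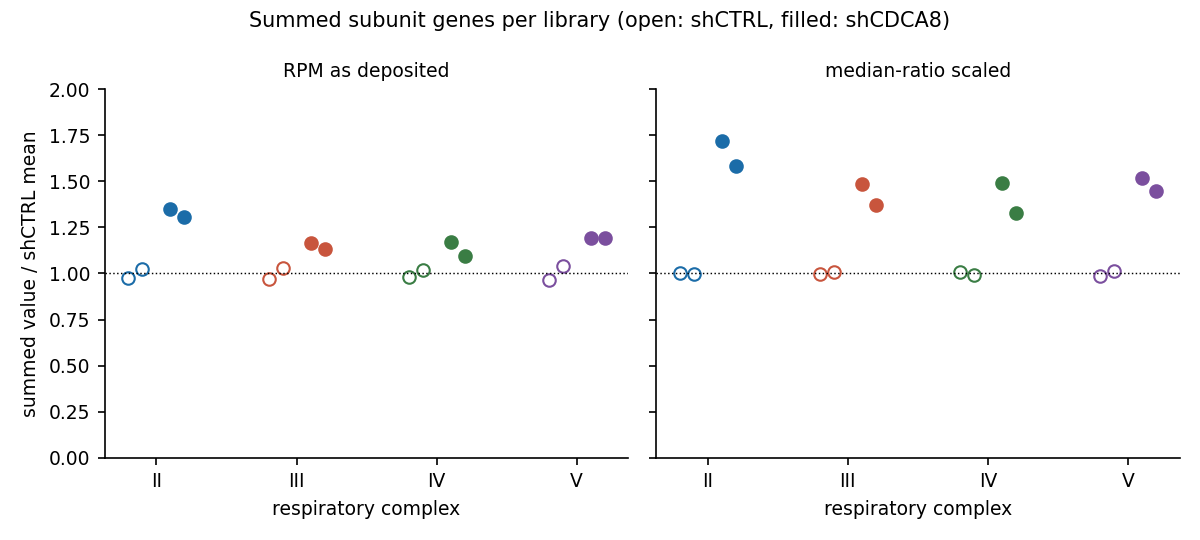
Summed values of the subunit genes of complexes II to V in each library, divided by the shCTRL mean of that complex (y axis). The left panel shows RPM as deposited and the right panel median-ratio scaled values, with shCTRL libraries open and shCDCA8 libraries filled. In both panels both shCDCA8 libraries lie above both shCTRL libraries for every complex, and in RPM the ratio of means is highest for complex II at 1.33.

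Promoters are shown for a few members of each complex, some that rose and some that did not, because nuclear respiratory genes are known to carry sites for NRF1, for the ETS family factor GABP and for YY1. Each sequence is the 150 bases before the annotated start in RefSeq on GRCh38.p14, written 5′ to 3′ on the gene's strand. Capitals mark letter matches, on either strand, to the NRF1 core GCATGCGC or its full form with GC before the core, the ETS motif CCGGAAG, or the YY1 core AAGATGGC. From complex II, SDHD (chr11:112086723-112086872, plus strand) and SDHB (chr1:17054033-17054182, minus strand) are shown as an uncalled gene beside a gene that rose. UQCRC2 (chr16:21953211-21953360, plus strand) had the highest log2 fold change of all members and no match in this window. COX5B (chr2:97645912-97646061, plus strand) rose and COX8A (chr11:63974470-63974619, plus strand) fell in RPM. ATP5C1 (chr10:7788027-7788176, plus strand) and ATP5J (chr21:25735055-25735204, minus strand, 1 of 2 starts in the table) both rose. In COX5B the last capitals are the start of an ETS match that runs past the annotated start.
SDHD: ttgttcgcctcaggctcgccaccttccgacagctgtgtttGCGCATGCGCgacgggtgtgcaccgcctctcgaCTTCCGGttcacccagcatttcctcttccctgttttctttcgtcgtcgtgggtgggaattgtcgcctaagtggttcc
SDHB: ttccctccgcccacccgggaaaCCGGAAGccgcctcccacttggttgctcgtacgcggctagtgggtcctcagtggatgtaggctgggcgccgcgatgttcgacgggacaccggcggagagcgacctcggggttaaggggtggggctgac
UQCRC2: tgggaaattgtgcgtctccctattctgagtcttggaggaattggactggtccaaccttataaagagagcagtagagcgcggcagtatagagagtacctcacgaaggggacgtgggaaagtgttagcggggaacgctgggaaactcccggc
COX5B: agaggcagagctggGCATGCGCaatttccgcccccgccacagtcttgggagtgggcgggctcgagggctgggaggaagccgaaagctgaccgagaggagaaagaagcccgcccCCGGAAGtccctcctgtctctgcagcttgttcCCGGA
COX8A: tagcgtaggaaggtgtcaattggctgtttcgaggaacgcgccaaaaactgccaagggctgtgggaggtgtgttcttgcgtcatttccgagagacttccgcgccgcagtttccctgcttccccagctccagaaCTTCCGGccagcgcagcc
ATP5C1: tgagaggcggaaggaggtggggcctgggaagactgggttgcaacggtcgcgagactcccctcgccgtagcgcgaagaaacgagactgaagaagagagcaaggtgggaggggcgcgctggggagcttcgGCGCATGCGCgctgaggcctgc
ATP5J: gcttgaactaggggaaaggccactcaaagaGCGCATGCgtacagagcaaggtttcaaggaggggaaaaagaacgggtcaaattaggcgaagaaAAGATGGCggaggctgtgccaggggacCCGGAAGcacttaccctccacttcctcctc

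In complex II the catalytic subunits rose, while the membrane anchors were split. SDHA, the flavoprotein that oxidises succinate, was at 70.3 and 78.8 RPM in shCTRL and at 121 and 124 RPM in shCDCA8 libraries. Its log2 fold change was 0.71 ± 0.0993 (SE, limma, adjusted p = 6.12e-05). SDHB, the iron-sulfur subunit, was at 34.1 and 35.1 RPM in shCTRL and at 53.1 and 52.1 RPM in shCDCA8, a log2 fold change of 0.59 ± 0.103 (adjusted p = 0.000337). In both genes the groups lay far apart relative to the spread within them, and median-ratio scaled values were 1.02 for SDHA and 0.89 for SDHB. SDHC, which with SDHD holds the enzyme in the membrane and binds heme and ubiquinone, was at 76.0 and 79.7 RPM in shCTRL and at 99.7 and 91.1 RPM in shCDCA8 (log2 fold change 0.29 ± 0.0992, limma, adjusted p = 0.0223). Its call was lost without shCTRL replicate 1 (0.25, adjusted p = 0.114) or shCDCA8 replicate 1 (0.22, adjusted p = 0.174). SDHD was at 53.1 and 51.4 RPM in shCTRL and at 48.4 and 46.2 RPM in shCDCA8, a log2 fold change of -0.14 ± 0.102 in RPM and 0.17 after median-ratio scaling, called on neither scale (limma, adjusted p = 0.241 and 0.143). SDHD was thus the lowest of the 4 on both scales. The ratio of SDHA to SDHD RPM within a library was 1.33 and 1.53 in shCTRL and 2.51 and 2.68 in shCDCA8, which does not depend on the scaling of the library. The SDHA pseudogene rows SDHAP1, SDHAP2 and SDHAP3 stayed between 0.750 and 3.38 RPM in every library, and none was called in RPM, while SDHAP3 was called higher after median-ratio scaling (0.39).

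**Figure D3:**
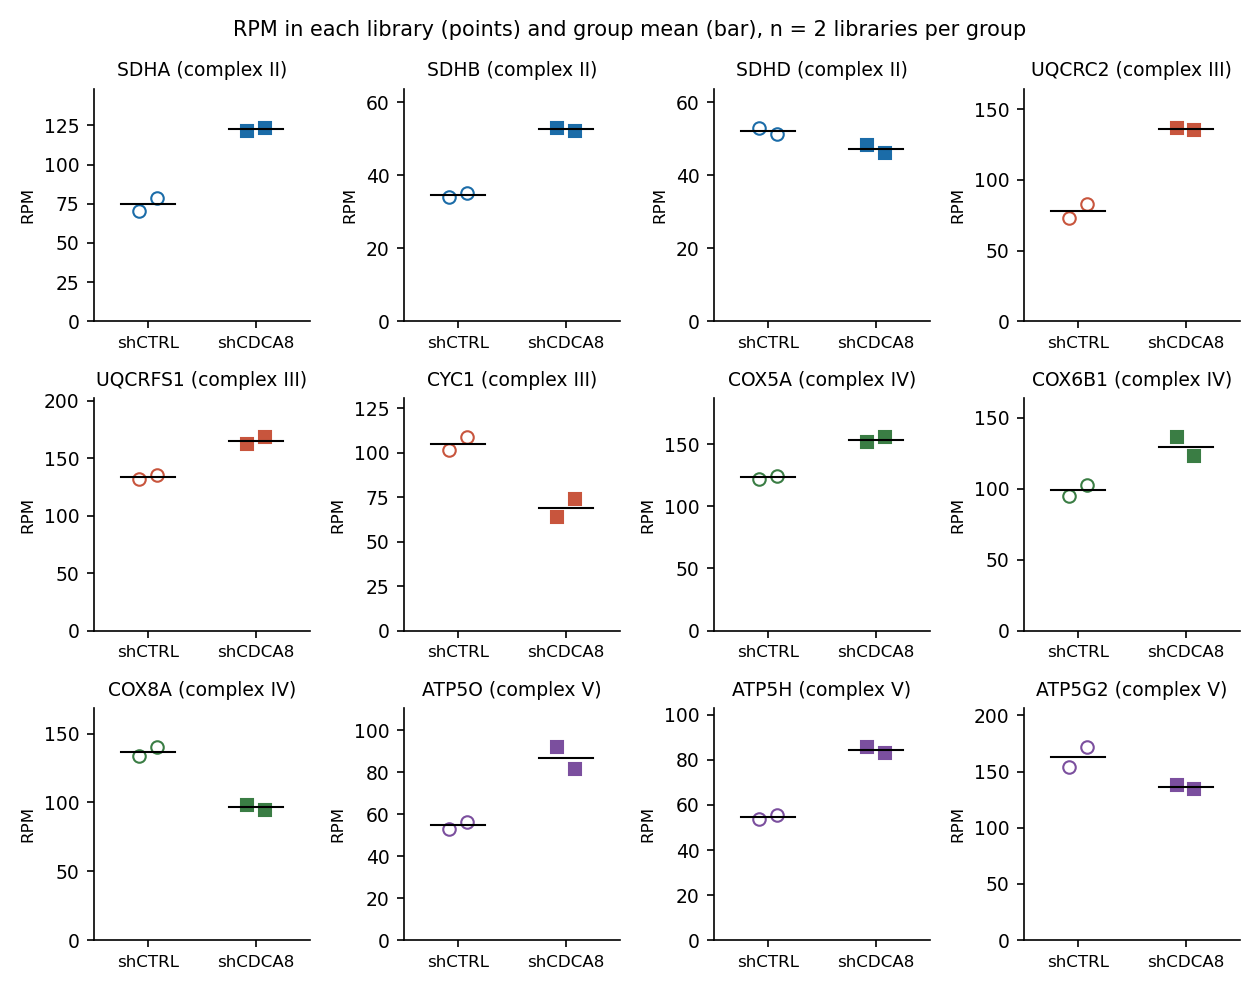
RPM in each library (y axis, from 0) for 12 members, with shCTRL libraries as open circles, shCDCA8 libraries as filled squares and group means as bars (n = 2 libraries per group). SDHA goes from 70.3 and 78.8 RPM to 121 and 124 RPM and UQCRC2 from 72.8 and 83.2 RPM to 137 and 135 RPM, whereas CYC1, COX8A, SDHD and ATP5G2 are lower in both shCDCA8 libraries in RPM.

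Complex III held both the highest and the lowest log2 fold change of all members. UQCRC2, a core subunit on the matrix side, was at 72.8 and 83.2 RPM in shCTRL and at 137 and 135 RPM in shCDCA8 (log2 fold change 0.80 ± 0.101, limma, adjusted p = 2.81e-05, 1.11 after median-ratio scaling). CYC1, which carries the heme that passes electrons to cytochrome c, was at 101 and 109 RPM in shCTRL and at 64.1 and 74.2 RPM in shCDCA8 (log2 fold change -0.60 ± 0.106, limma, adjusted p = 0.000361). CYC1 was the 1 member that fell on both scales, by 0.29 on the log2 scale after median-ratio scaling (limma, adjusted p = 0.0135), and its call held in all 14 alternatives tried. The ratio of UQCRC2 to CYC1 RPM was 0.718 and 0.765 in the shCTRL libraries and 2.14 and 1.82 in the shCDCA8 libraries.

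The other core subunit, UQCRC1, was at 88.8 and 91.5 RPM in shCTRL and at 109 and 115 RPM in shCDCA8 (log2 fold change 0.31, limma, adjusted p = 0.0128). UQCRFS1, the Rieske iron-sulfur protein, was at 132 and 135 RPM in shCTRL and at 162 and 168 RPM in shCDCA8 (0.30, limma, adjusted p = 0.0110). The 2 electron-carrying subunits of complex III encoded in the nucleus thus went in opposite directions. UQCRB, a small subunit near the ubiquinone site, was at 78.9 and 84.2 RPM in shCTRL and at 120 and 99.3 RPM in shCDCA8 (0.42, limma, adjusted p = 0.00552). The remaining small subunits lie at the edge of the complex. UQCR10 was at 67.0 and 68.5 RPM in shCTRL and at 82.1 and 82.4 RPM in shCDCA8 (0.28, limma, adjusted p = 0.0240).

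The other 3 kept small subunits were called in neither direction in RPM, and their groups overlapped. UQCRH, the acidic hinge protein, had a log2 fold change of 0.16 and UQCRQ one of 0.02, and median-ratio scaling gave calls for both, at 0.47 and 0.33 (limma, adjusted p = 0.00400 and 0.00605). UQCR11 was at 102 and 109 RPM in shCTRL and at 104 and 94.9 RPM in shCDCA8, with a log2 fold change of -0.09 in RPM and 0.22 after median-ratio scaling, called on neither scale. The count of 5 rises in complex III was 2 without shCTRL replicate 1, 4 without shCTRL replicate 2, 3 without shCDCA8 replicate 1 and 2 without shCDCA8 replicate 2. UQCR10 lost its call in each of these, with log2 fold changes from 0.26 to 0.29. UQCRC1 (0.29 and 0.27) and UQCRFS1 (0.28 and 0.27) lost theirs without shCTRL replicate 1 or shCDCA8 replicate 2, and UQCRB (0.28) without shCDCA8 replicate 1. UQCRC2 kept its call in all 14 alternatives.

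In complex IV the calls were many and small, and 1 gene went the other way. Its nuclear subunits join the mitochondrially encoded core in stages, and they are given here by the core subunit with which they assemble. Both genes of the stage around MT-CO1 rose. COX4I1 was at 130 and 132 RPM in shCTRL and at 161 and 159 RPM in shCDCA8 (log2 fold change 0.29, limma, adjusted p = 0.0134). COX5A was at 122 and 124 RPM in shCTRL and at 152 and 156 RPM in shCDCA8 (0.31, limma, adjusted p = 0.00899).

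All 3 kept genes of the stage around MT-CO3 rose too. COX6B1, which faces the intermembrane space where cytochrome c docks, was at 95.2 and 103 RPM in shCTRL and at 136 and 123 RPM in shCDCA8 (log2 fold change 0.39 ± 0.0993, limma, adjusted p = 0.00466). COX6A1 was at 165 and 163 RPM in shCTRL and at 229 and 195 RPM in shCDCA8 (0.36, limma, adjusted p = 0.00706). COX7A2 was at 58.3 and 63.1 RPM in shCTRL and at 77.2 and 75.5 RPM in shCDCA8 (0.33, limma, adjusted p = 0.0123). Median-ratio scaled values of the 5 genes of these stages lay between 0.60 (COX4I1) and 0.69 (COX6B1).

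Of the 5 kept genes of the stage around MT-CO2, 2 rose and 1 fell in RPM. COX5B, which binds zinc on the matrix side, was at 59.9 and 61.4 RPM in shCTRL and at 75.2 and 75.9 RPM in shCDCA8 (log2 fold change 0.31, limma, adjusted p = 0.0134). COX6C was at 42.4 and 43.5 RPM in shCTRL and at 58.7 and 48.1 RPM in shCDCA8 (0.30, limma, adjusted p = 0.0378). COX8A, the small subunit that spans the membrane, was at 133 and 140 RPM in shCTRL and at 98.0 and 94.7 RPM in shCDCA8, a log2 fold change of -0.50 ± 0.0935 in RPM (limma, adjusted p = 0.000527) and of -0.19 after median-ratio scaling (adjusted p = 0.0579). COX8A was the lowest of the complex on both scales, and its groups did not overlap in RPM. COX7B had a log2 fold change of 0.04 in RPM and was called at 0.34 after median-ratio scaling (limma, adjusted p = 0.00889). COX7C had one of -0.09 in RPM and 0.22 after median-ratio scaling, called on neither scale, and the groups overlapped in both genes in RPM.

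Leaving out libraries changed the complex IV count most, from 7 rises to 3 without shCTRL replicate 1, to 6 without shCTRL replicate 2 or shCDCA8 replicate 2, and to 2 without shCDCA8 replicate 1. COX4I1, COX5B, COX6C and COX7A2 lost their calls without shCTRL replicate 1 and also, together with COX6A1, without shCDCA8 replicate 1, while COX6C lost its call without shCTRL replicate 2 (0.32) and COX5B without shCDCA8 replicate 2 (0.31). Where replicate 1 of shCTRL or of shCDCA8 was left out, log2 fold changes were 0.27 and 0.28 for COX4I1, 0.30 and 0.32 for COX5B, and 0.27 and 0.31 for COX7A2, close to those with all libraries. COX6C was lowest without shCDCA8 replicate 1, at a log2 fold change of 0.16 (limma, adjusted p = 0.378), and COX6A1 was at 0.24 there (adjusted p = 0.105). COX5A and COX6B1 kept their calls in all 14 alternatives, and COX8A in each that left out a library.

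Complex IV has paralogs that differ by tissue, and in each pair only the ubiquitous form passed the filter. COX6A2, the heart and skeletal muscle form, had 1 read in shCTRL replicate 1 and 0 in the other 3 libraries, against 163 to 229 RPM for COX6A1. COX6B2, the testis form, had between 0 and 3 reads. COX7A1, the muscle form, had 1 read in shCDCA8 replicate 1 and 0 in the others. COX7B2 was the one with most reads, at 0.732 and 0.450 RPM in shCTRL and at 0.402 and 0.488 RPM in shCDCA8, so the groups overlapped. UQCRHL, a near copy of the complex III gene UQCRH, had 0 reads in both shCTRL libraries and 3 and 1 in shCDCA8. A count of 0 reads allows up to 3 reads, or 0.0543 to 0.0642 RPM in these libraries, for counting error only. A change in COX6A2, COX6B2, COX7A1 or UQCRHL, with at most 3 reads in any library, was not detectable at this depth, and COX7B2, with 21 to 39 reads, was under the filter.

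In complex V, 9 of 14 kept genes rose in RPM and 13 after median-ratio scaling. The 4 peripheral stalk genes, whose products hold the catalytic head still while the rotor turns, all rose, with a median log2 fold change of 0.55. ATP5O, which joins the stalk to the head, was at 53.1 and 56.5 RPM in shCTRL and at 92.2 and 81.4 RPM in shCDCA8 (0.65 ± 0.105, limma, adjusted p = 0.000180). ATP5H was at 53.9 and 55.4 RPM in shCTRL and at 85.9 and 83.2 RPM in shCDCA8 (0.62 ± 0.0979, limma, adjusted p = 0.000156). ATP5J, the coupling factor, was at 30.4 and 36.2 RPM in shCTRL and at 50.6 and 43.2 RPM in shCDCA8 (0.48 ± 0.124, limma, adjusted p = 0.00453). ATP5F1, subunit b, was at 97.9 and 87.4 RPM in shCTRL and at 131 and 122 RPM in shCDCA8 (0.45, limma, adjusted p = 0.00199). In none of the 4 did the groups overlap, each call held in all 14 alternatives, and the median was 0.86 after median-ratio scaling.

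In the head and central stalk, 3 of 4 kept genes rose. ATP5C1, the central shaft, was at 88.0 and 97.4 RPM in shCTRL and at 130 and 123 RPM in shCDCA8 (log2 fold change 0.45 ± 0.0982, limma, adjusted p = 0.00160). ATP5D, which sits at the foot of the shaft, was at 122 and 123 RPM in shCTRL and at 158 and 175 RPM in shCDCA8 (0.44, limma, adjusted p = 0.00136). ATP5A1, the structural partner of the catalytic subunit, was at 264 and 285 RPM in shCTRL and at 355 and 352 RPM in shCDCA8 (0.37, limma, adjusted p = 0.00269). These 3 calls held in all 14 alternatives. ATP5B, the catalytic subunit itself, was at 584 and 634 RPM in shCTRL and at 640 and 677 RPM in shCDCA8, and was not called (0.11, limma, adjusted p = 0.255), although its groups did not overlap. After median-ratio scaling ATP5B was called at 0.43, still the lowest of the 4. ATP5E, the small epsilon subunit of the shaft, had 2 and 1 reads in shCTRL and 3 and 13 reads in shCDCA8, too few to test, and its pseudogene row ATP5EP2 had 17 and 29 reads in shCTRL and 14 and 7 in shCDCA8. Whether the few ATP5E reads reflect its RNA level or how reads were assigned in counting was not tested.

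The c ring is the proton-driven rotor in the membrane, and 3 genes, ATP5G1, ATP5G2 and ATP5G3, encode the same mature c subunit. ATP5G3 was at 68.0 and 72.7 RPM in shCTRL and at 90.1 and 91.1 RPM in shCDCA8 (log2 fold change 0.36, limma, adjusted p = 0.00603). ATP5G1 was at 46.7 and 56.6 RPM in shCTRL and at 56.3 and 58.6 RPM in shCDCA8, was not called in RPM (0.16, limma, adjusted p = 0.246), where its groups overlapped, but was called after median-ratio scaling (0.46, adjusted p = 0.00241). ATP5G2 was at 154 and 172 RPM in shCTRL and at 138 and 134 RPM in shCDCA8, a log2 fold change of -0.26 in RPM (limma, adjusted p = 0.0326) and of 0.06 after median-ratio scaling (adjusted p = 0.557). The ATP5G2 call in RPM was also lost without shCTRL replicate 2 (-0.18, adjusted p = 0.262), without shCDCA8 replicate 1 (-0.28, adjusted p = 0.0677) or shCDCA8 replicate 2 (-0.23, adjusted p = 0.110).

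Shares within the trio do not depend on how a library is scaled. ATP5G2 made up 57.4% and 57.1% of the trio's summed RPM in shCTRL libraries and 48.6% and 47.3% in shCDCA8 libraries. ATP5G3 went from 25.3% and 24.1% to 31.6% and 32.1%, and ATP5G1 from 17.4% and 18.8% to 19.8% and 20.6%. The summed RPM was 269 and 301 in shCTRL and 285 and 284 in shCDCA8, so the groups overlapped in the sum while each share lay apart. These shares are not adjusted for transcript length and describe reads, not molecules.

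**Figure D4:**
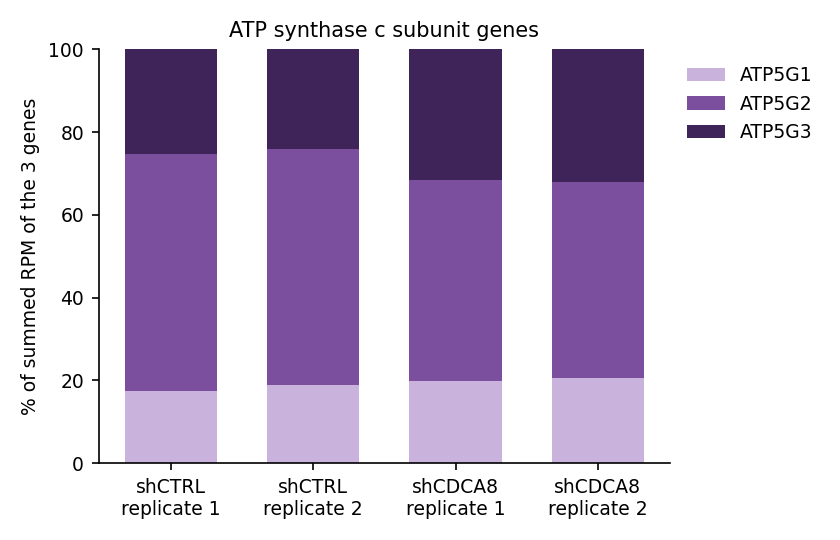
Share of the summed RPM of ATP5G1, ATP5G2 and ATP5G3 (y axis, percent) held by each gene in each of the 4 libraries. ATP5G2 holds 57.4% and 57.1% in the shCTRL libraries and 48.6% and 47.3% in the shCDCA8 libraries, and ATP5G3 holds more in both shCDCA8 libraries than in either shCTRL library.

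Of the 3 small membrane subunits, which lie around the c ring and where ATP synthases dimerise, 1 rose. ATP5L was at 91.6 and 106 RPM in shCTRL and at 126 and 120 RPM in shCDCA8 (log2 fold change 0.32, limma, adjusted p = 0.0171), a call lost without shCTRL replicate 1 (0.21, adjusted p = 0.183) or shCDCA8 replicate 1 (0.28, adjusted p = 0.0747). ATP5I and ATP5J2 were called in neither direction in RPM, at 0.07 and 0.03, and both had overlapping groups. Median-ratio scaling gave calls for both, at 0.38 and 0.34.

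The 3 rows that match by symbol alone behaved differently from one another. ATP5SL, now named DMAC2 and known as an assembly factor of complex I, was at 7.03 and 7.02 RPM in shCTRL and at 12.4 and 12.0 RPM in shCDCA8 (log2 fold change 0.72 ± 0.127, limma, adjusted p = 0.000344). ATP5S, now DMAC2L, was at 7.28 and 7.96 RPM in shCTRL and at 7.50 and 8.19 RPM in shCDCA8, so the groups overlapped in RPM (0.04, limma, adjusted p = 0.818), while it was called after median-ratio scaling (0.31, adjusted p = 0.0441), at 6.69 and 6.94 against 8.55 and 8.89. COX7A2L, the supercomplex factor SCAFI that links complexes III and IV, was at 37.1 and 35.1 RPM in shCTRL and at 29.9 and 28.8 RPM in shCDCA8, a log2 fold change of -0.29 in RPM (limma, adjusted p = 0.0334) and 0.02 after median-ratio scaling (adjusted p = 0.898). The COX7A2L call in RPM was lost whichever library was left out, with values from -0.33 to -0.25. The ratio of COX7A2, the complex IV subunit, to COX7A2L was 1.57 and 1.80 in shCTRL and 2.58 and 2.62 in shCDCA8 libraries.

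Genes of the same pathway outside the symbol rule are given from separate lists, for comparison. Among all kept genes 18.8% rose and 47.6% fell in RPM, and 33.2% rose and 33.6% fell after median-ratio scaling. Of 37 complex I subunit genes, 22 rose and 0 fell in RPM, with a median log2 fold change of 0.32, and 36 rose and 0 fell after median-ratio scaling, with a median of 0.63. The complex I median was therefore within the range of the medians of complexes II to V. NDUFB3 was at 10.5 and 10.4 RPM in shCTRL and at 22.0 and 18.9 RPM in shCDCA8 (0.90, limma, adjusted p = 6.26e-05), and NDUFA13 and NDUFB10 rose by 0.66 and 0.60. Of 5 genes for cytochrome c and for subunits or partners outside the symbol rule, 1 rose, 1 fell and 3 were not called in RPM, and 4 rose and 0 fell after median-ratio scaling. The 3 uncalled in RPM were NDUFA4, now placed in complex IV (0.20 in RPM, 0.51 after median-ratio scaling), and the complex V subunit genes USMG5 (0.25 and 0.55) and C14orf2 (0.10 and 0.40). Cytochrome c itself, CYCS, which carries electrons from CYC1 to complex IV, was at 66.6 and 59.5 RPM in shCTRL and at 87.8 and 80.2 RPM in shCDCA8 (0.41, limma, adjusted p = 0.00457). ATPIF1, the inhibitor of ATP synthase, was at 123 and 132 RPM in shCTRL and at 108 and 97.2 RPM in shCDCA8, a log2 fold change of -0.31 in RPM (limma, adjusted p = 0.0144) and -0.0048 after median-ratio scaling (adjusted p = 0.966). Its call in RPM was also lost without shCTRL replicate 2 (-0.26, adjusted p = 0.102) or shCDCA8 replicate 2 (-0.24, adjusted p = 0.108).

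Assembly factor genes moved in both directions. Of 23 kept complex IV assembly genes, 8 rose and 7 fell in RPM, with a median log2 fold change of 0.10, and 13 rose and 3 fell after median-ratio scaling, with a median of 0.40. In RPM these were 34.8% and 30.4%, beside 18.8% of all kept genes that rose and 47.6% that fell. After median-ratio scaling 33.2% of all kept genes rose and 33.6% fell. LRPPRC, which stabilises mitochondrial messenger RNAs, was at 17.1 and 13.8 RPM in shCTRL and at 34.4 and 35.8 RPM in shCDCA8 (1.14 ± 0.127, limma, adjusted p = 1.06e-05). COX17, the copper chaperone of complex IV, was at 23.2 and 23.4 RPM in shCTRL and at 46.5 and 43.9 RPM in shCDCA8 (0.93, limma, adjusted p = 1.51e-05). COX19, another factor in copper delivery, was at 11.2 and 11.7 RPM in shCTRL and at 6.18 and 5.34 RPM in shCDCA8 (-0.88 in RPM and -0.60 after median-ratio scaling, limma, adjusted p = 0.000117 and 0.00371).

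Of 4 complex II assembly genes 1 rose and 1 fell in RPM, with a median of 0.03. After median-ratio scaling 2 rose and 0 fell, with a median of 0.28. In RPM these were 25% and 25%, beside 18.8% of all kept genes that rose and 47.6% that fell. After median-ratio scaling 33.2% of all kept genes rose and 33.6% fell. SDHAF2, which attaches flavin to SDHA, rose (0.35, limma, adjusted p = 0.0170) and ACN9, now SDHAF3, fell in RPM (-0.37, adjusted p = 0.0186, but -0.07 and not called after median-ratio scaling). SDHAF2 lost its call without shCTRL replicate 1 (0.29, adjusted p = 0.101) or shCDCA8 replicate 2 (0.33, adjusted p = 0.0856). ACN9 lost its call in RPM without shCTRL replicate 1 (-0.34, adjusted p = 0.0642) or shCDCA8 replicate 2 (-0.31, adjusted p = 0.123). Of 6 complex III assembly genes 1 rose and 2 fell in RPM, and 3 rose and 0 fell after median-ratio scaling. In RPM these were 16.7% and 33.3%, beside 18.8% and 47.6% of all kept genes. C11orf83 (now UQCC3) and UQCC1, which act on cytochrome b, had log2 fold changes of -0.37 and -0.32 in RPM and of -0.07 and -0.06, not called, after median-ratio scaling. LYRM7, which delivers the Rieske protein UQCRFS1, rose by 0.33 (limma, adjusted p = 0.0499). Without a single library UQCC1 lost its call in every case (-0.37 to -0.28), C11orf83 without replicate 2 of either group (-0.31 and -0.32) and LYRM7 likewise (0.26 and 0.20). Of 5 complex V assembly genes ATPAF2, which helps to build the head, rose (0.38, limma, adjusted p = 0.00850) and 4 were not called in RPM. The rise was 20% of these genes, beside 18.8% of all kept genes. After median-ratio scaling 2 rose and 0 fell, beside 33.2% and 33.6% of all kept genes.

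**Figure D5:**
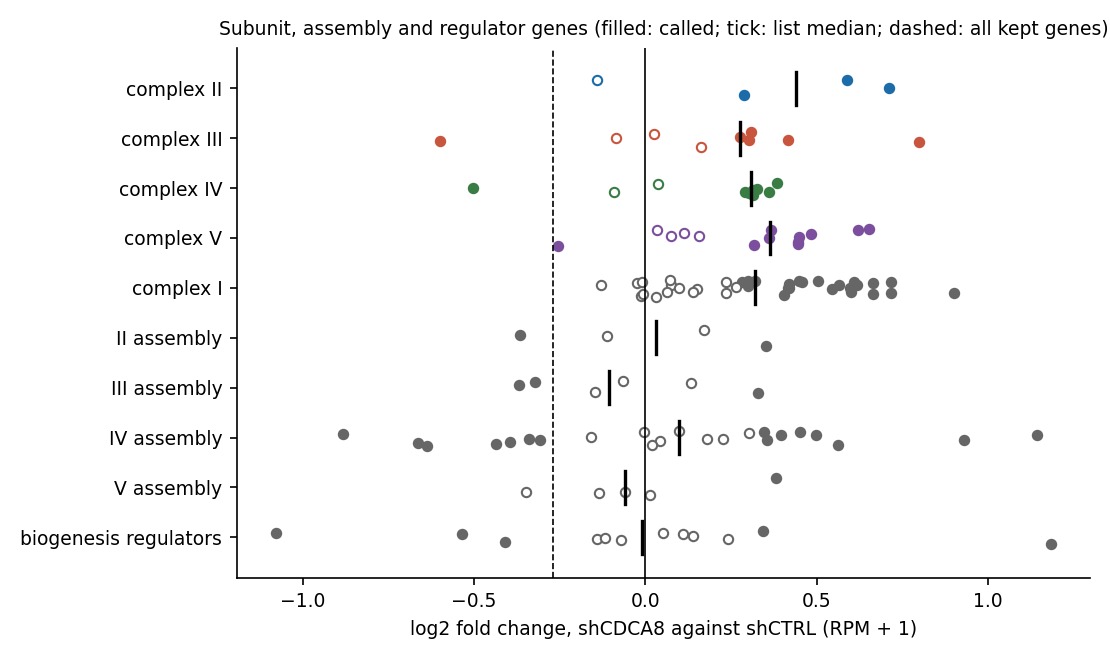
Log2 fold change of shCDCA8 against shCTRL in RPM (x axis) for each kept gene of complexes II to V, complex I, the assembly factors of complexes II to V and the regulators of mitochondrial biogenesis (1 row each). Filled points passed the test, open points did not, thick ticks mark list medians and the dashed line is the median of all kept genes at -0.27. The subunit lists have medians from 0.28 to 0.44, and assembly factors and regulators spread to both sides, from -1.08 (PPRC1) to 1.18 (GABPA).

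Of 12 kept regulators of mitochondrial biogenesis, 2 rose and 3 fell in RPM, with a median log2 fold change of -0.01, and 6 rose and 1 fell after median-ratio scaling, with a median of 0.28. In RPM these were 16.7% and 25%, beside 18.8% of all kept genes that rose and 47.6% that fell. After median-ratio scaling 33.2% of all kept genes rose and 33.6% fell. GABPA, the DNA-binding part of GABP, was at 2.91 and 1.499 RPM in shCTRL and at 5.74 and 6.47 RPM in shCDCA8 (1.18 ± 0.189, limma, adjusted p = 0.000169). PPRC1, a coactivator of the PGC-1 family, was at 24.4 and 29.8 RPM in shCTRL and at 10.4 and 14.4 RPM in shCDCA8 (-1.08 ± 0.158, limma, adjusted p = 8.72e-05, -0.78 after median-ratio scaling). NRF1 was at 7.32 and 8.61 RPM in shCTRL and at 5.13 and 5.21 RPM in shCDCA8, a fall in RPM (-0.53, limma, adjusted p = 0.00449) that was not called after median-ratio scaling (-0.26, adjusted p = 0.0935). PPARGC1A, the best-known PGC-1 coactivator, was under the filter.

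Promoters of 31 of the 40 kept members were matched in RefSeq, with 37 annotated starts. In windows from 250 bases before to 50 after the start, the ETS motif CCGGAAG was in 43.2% of member promoters, against 10.3% of all 35116 promoters in the table and 17.5% of the 13860 promoters of kept genes. The NRF1 core GCATGCGC was in 24.3% of member promoters, against 3.05% of all and 4.99% of those of kept genes, and its full form with GC before the core in 5.41%, 1.24% and 2.03%. The YY1 core AAGATGGC was in 16.2%, 2.89% and 5.00%, and its longer form with GGC after the core in 5.41%, 0.849% and 1.82%. Both strands were searched.

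The ETS motif was found in 9 of the 20 genes that rose and in 6 of the 11 other kept members with a promoter, the NRF1 core in 5 of 20 and 3 of 11, and the YY1 core in 5 of 20 and 0 of 11. Genes with the full NRF1 motif were ATP5C1, which rose, and SDHD, which was not called, as printed above. COX8A, which fell in RPM, held an ETS match close to its start, and so did COX5B, which rose. UQCRC2 held none of these motifs in its window and had the highest log2 fold change. Median log2 fold changes with and without a motif were 0.31 and 0.31 for ETS, 0.34 and 0.31 for the NRF1 core, 0.15 and 0.31 for the full NRF1 form (2 genes), 0.48 and 0.30 for the YY1 core (5 genes), and 0.45 and 0.31 for its longer form (2 genes). These differences were not tested.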

How the data were processed

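The data are polyA RNA-seq of 4 C4-2 libraries, 2 with shCTRL and 2 with shCDCA8. Per the labels' protocols RNA was extracted with Qiagen kits and sequenced by BGI on DNBseq, but a Zymo extraction with an Illumina preparation is described too, with no word on which libraries it covers. TopHat, HTSeq, edgeR, cutadapt and build hg19 are named, without versions or roles, in the submitters' processing notes. Values were deposited as RPM per gene, per the file headers, and which annotation was used is unknown here. All values were whole reads times a fixed step (100% within 0.01 of a whole read), so reads could be recovered.

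Values were tested as log2(RPM + 1) with limma 3.58.1 (trend, two-sided, R 4.3.3) on genes that reached 1 RPM in 2 or more of the 4 libraries, with Benjamini-Hochberg adjustment over all 11833 kept genes. Fold changes on this scale understate the change of low genes. Alternatives were 2 other pseudocounts, 2 other filters, 3 scalings (median-ratio, quantile, gene rows), leaving out each library, a replicate block, and edgeR 4.0.16 and DESeq2 1.42.0 on whole reads, where edgeR called 3851 genes higher. With a library left out, the lone library of its group was assumed to vary like the others. Scripts were tested on simulated data. Promoters were searched with Python 3.11.15 and pandas 2.3.3, and plots drawn with matplotlib 3.10.9.

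Members, lists and groupings by role were chosen with earlier results of these data known. Values in each library were given for all complex II genes. Also chosen were up to 4 genes with the highest and up to 3 with the lowest log2 fold change in the other complexes. Paralogs and up to 3 genes with the smallest p in each list were added, with the other members of each role group beside them. For some of these genes only log2 fold changes or reads were given. Symbols are as deposited, and 17 members have since been renamed (ATP5O is ATP5PO, ATP5H is ATP5PD, ATP5J is ATP5PF). Named pseudogenes exist for 30 members in RefSeq, and reads may be shared with them, so these values are uncertain to that degree. The small RNA libraries were not used here, and 1 luminal marker is not reported here.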

Additional observations from a re-analysis of the deposited data

How the results depend on the processing

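Of the 25 rises in RPM, 14 held in all 14 alternatives, and of the 4 falls 1 did (CYC1). Calls in both directions over all genes depended on scaling: rises were 3931 with median-ratio scaling, 3980 with quantile normalization, 3985 with scaling to the gene rows, 3851 with edgeR and 3639 with DESeq2, and falls were 3721 with quantile normalization and 3575 with DESeq2. Members that fell numbered 1 with median-ratio scaling, 2 with quantile normalization, 1 with scaling to the gene rows, 2 with edgeR and 1 with DESeq2. Complex III had 8 rises when scaled to the gene rows.

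In the order median-ratio, quantile, gene rows, edgeR and DESeq2, the median log2 fold change was 0.75, 0.68, 0.76, 0.76 and 0.76 for complex II, 0.58, 0.49, 0.60, 0.59 and 0.59 for complex III, 0.61, 0.54, 0.63, 0.62 and 0.63 for complex IV, and 0.67, 0.63, 0.69, 0.67 and 0.68 for complex V. In the same order, values with the opposite sign to RPM were 0.056, 0.021, 0.070, 0.050 and 0.056 for ATP5G2, 0.22, 0.18, 0.23, 0.22 and 0.22 for COX7C, 0.17, 0.10, 0.18, 0.16 and 0.17 for SDHD, and 0.22, 0.15, 0.24, 0.22 and 0.23 for UQCR11. COX7A2L changed sign with median-ratio scaling (0.016), gene rows (0.029), edgeR (0.0090) and DESeq2 (0.015), and ATPIF1 with gene rows (0.0092).

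Leaving out each library in turn gave 16 to 23 rises and 2 to 3 falls among members, 2 to 4 rises in complex III, 2 to 6 in complex IV, and complex V medians of 0.31 to 0.42. Uncalled genes whose sign changed ranged from -0.064 to 0.13 for ATP5J2, from -0.020 to 0.095 for ATP5S, from -0.025 to 0.098 for COX7B and from -0.030 to 0.078 for UQCRQ. The share of member promoters with an NRF1 match was 5.41% for the full motif and 24.3% for the core. As the core is part of the full motif, its share cannot be the lower. The cause of the changes in calls and fold changes was not tested.

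The groups share replicate numbers but the labels name nothing shared behind them. Differences between replicates 1 and 2 correlated at r = 0.31 between the groups over 11833 genes. A fit with the replicate number as a block gave 25 rises and 4 falls among members and changed no call among the 73 genes checked. NDUFA4, USMG5, C14orf2 and the SDHA pseudogene rows were not among the genes checked. With 2 libraries a group, precision is limited, and reads of kept members ran from 328 to 37420 per library.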

Other observations

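Of the 35 members with a promoter matched in RefSeq, 12 had another gene starting within 1000 bases on the opposite strand, and in 11 of these pairs both genes were kept. The remaining members could not be searched. Of the 11 neighbours, 5 rose, 3 fell and 3 were not called in RPM, beside 18.8% of all kept genes that rose and 47.6% that fell. In 4 pairs both genes rose in RPM, and pairs were not counted after median-ratio scaling. ATP5J and GABPA start 68 bases apart, and their log2 fold changes were 0.48 and 1.18. SDHA and CCDC127 start 167 bases apart and had 0.71 and 0.48, ATP5H and KCTD2 start 256 bases apart and had 0.62 and 0.51, and ATP5C1 and KIN start 184 bases apart and had 0.45 and 0.41. KIN lost its call without shCTRL replicate 2 (0.24), shCDCA8 replicate 1 (0.39) or shCDCA8 replicate 2 (0.42). In 1 pair the directions were opposite, as ATP5A1 rose by 0.37 while HAUS1, 158 bases away, had -0.61 in RPM, a call lost after median-ratio scaling (-0.37) and without shCDCA8 replicate 2 (-0.41). Reads of such a pair cannot be told apart where their transcripts overlap and the counting did not use strand. The RefSeq starts of these pairs lie apart, but the annotation used for counting is unknown.

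Of 8 genes often used as a guide to mitochondrial mass, 1 rose and 2 fell in RPM, with a median log2 fold change of 0.00, and after median-ratio scaling 5 rose and 1 fell, with a median of 0.31. In RPM these were 12.5% and 25%, beside 18.8% of all kept genes that rose and 47.6% that fell. After median-ratio scaling 33.2% of all kept genes rose and 33.6% fell. CS, citrate synthase, was at 217 and 243 RPM in shCTRL and at 153 and 170 RPM in shCDCA8 (-0.51 in RPM and -0.20 after median-ratio scaling, limma, adjusted p = 0.000660 and 0.0452). TOMM20, an outer membrane import receptor, had -0.54 in RPM (limma, adjusted p = 0.000748) and -0.23 after median-ratio scaling, where it was not called (adjusted p = 0.0879). VDAC2, an outer membrane channel, rose by 0.26, a call lost without shCTRL replicate 1 (0.19), shCDCA8 replicate 1 (0.24) or shCDCA8 replicate 2 (0.28).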
